A study of Mus musculus with 4 samples.

Results

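The lysosomal genes described here fall into 2 groups, listed by symbol with no cut on a measured value. Earlier results of these data were known when the members were chosen. The first was a list of 29 lysosomal hydrolases, hydrolase helper proteins and membrane proteins, of which 28 had a probe set annotated to that symbol alone. Cd63, a tetraspanin of late endosomes and lysosomes, had none and has no value here. The second held every gene whose single symbol begins with Atp6v or Atp6ap, the subunits and accessory proteins of the proton pump, or V-ATPase, which came to 22 genes. Together they were 50 genes with 117 probe sets, of 18193 genes and 45037 probe sets on the array. Testing required a level at or above an array's 40th percentile in at least 2 of the 4 arrays, which 101 of the 117 probe sets and 46 of the 50 genes did. The 4 genes without a tested probe set were all pump genes (Atp6v0a4, Atp6v0e2, Atp6v1b1 and Atp6v1c2), isoforms best known from other tissues such as kidney and brain, whose arrays all read between 3.42 and 4.29 on the log2 scale.

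All 4 arrays carried RNA of MyD88-/- mouse macrophages, raised from bone marrow over 6 days with recombinant human M-CSF, which turns marrow precursors into macrophages. MyD88 relays signals of most Toll-like receptors, and since both groups lacked it, no wild-type response was analysed here. The unstimulated group held 2 arrays (0 min), whose titles carry the codes LPS and PIC although the labels call both unstimulated. The zymosan group held 2 arrays of cells given 100 ug/ml zymosan for 120 min; zymosan consists of yeast cell wall particles, which macrophages bind through Dectin-1 and Toll-like receptor 2 and engulf. The labels give no age, sex or strain. They also leave unsaid whether replicate arrays stem from different mice or cultures, so a p-value here reflects only the spread among 4 arrays, part of which may be technical.

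Lysosomes break down what a macrophage engulfs. Hydrolases made in the endoplasmic reticulum are sorted to them by mannose 6-phosphate tags, membrane proteins such as the LAMPs line and protect the organelle, and the V-ATPase acidifies it, its V1 sector hydrolysing ATP in the cytosol while its V0 sector carries protons through the membrane. Many of the genes are known targets of TFEB, TFE3 and MITF, transcription factors that bind E-box motifs containing CACGTG. In macrophages, particles are taken into phagosomes that fuse with these lysosomes.

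The array medians lay between 4.92 and 4.94 (log2), and across all probe sets tested the differences between the arrays of a pair had an SD of 0.29 for the unstimulated and 0.20 for the zymosan arrays; over the lysosomal members those SDs were 0.22 and 0.17. By hybridization date, the scanner's settings files place the arrays on 3 processing days. Unstimulated replicate 2 came 16 days after unstimulated replicate 1, and both zymosan arrays came 153 days after it. The day of the zymosan arrays holds no unstimulated array, so processing day and stimulus cannot be told apart. The Myd88 probe set read 8.72 and 8.78 in the unstimulated and 8.37 and 8.40 in the zymosan arrays; whether it lies in the deleted part is not given, so it checks nothing. Of 7 macrophage markers, 0 rose by limma (0 at an unadjusted p under 0.05) and 4 fell (Itgam, Fcgr1, Adgre1 and Csf1r) while Lyz2 stayed between 14.03 and 14.11 and Cd68 between 13.07 and 13.35 (log2). Of 12 markers of neutrophils and granulocyte precursors, 11 rose and 0 fell (0 lower at an unadjusted p under 0.05), none lay below the filter level in all arrays, and their summed level went from 10.2 in both unstimulated arrays to 12.3 and 12.4 in the zymosan arrays (log2 of the sum). The remaining marker lists held few tested genes: 1 of 3 osteoclast genes rose (Ctsk), 1 of 3 B cell genes fell (Cd79b), 1 of 2 erythroid and megakaryocyte genes rose (Pf4), and none of 3 T and NK cell, 3 dendritic cell, 3 stromal fibroblast and 1 mast cell and basophil genes was called. At an unadjusted p under 0.05, 1 osteoclast gene (Dcstamp) and 1 fibroblast gene were lower.

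Over probe sets, the hydrolases and membrane proteins fell more often than they rose, and few pump probe sets were called in either direction. Several of the fallen probe sets belong to Laptm5 and Ids. By gene, the hydrolase and membrane protein counts were closer, 3 risen and 4 fallen of 28. Every difference is a log2 value of the zymosan mean minus the unstimulated mean, and a probe set or gene is said to have risen or fallen where limma's test gave an adjusted p (Benjamini-Hochberg, over all probe sets or all genes tested) under 0.05. Of 61 hydrolase and membrane protein probe sets, 6 rose and 16 fell, where 8.48% of all 27571 tested probe sets rose and 7.45% fell. Their median difference was -0.19, beside -0.01 for all tested probe sets. After quantile normalization the split was 3 risen and 16 fallen, and with processing day as a random block it was 0 risen (7 higher at an unadjusted p under 0.05 by limma) and 6 fallen. Without zymosan replicate 1 it was 0 and 2, and without zymosan replicate 2 it was 0 and 1 (4 and 5 higher at an unadjusted p under 0.05). Of 40 pump probe sets, 2 rose and 2 fell, with a median difference of 0.18. RNA of a whole culture cannot tell fewer cells of a type from less RNA per cell, and the part of the granulocyte genes' rise in these counts was not tested.

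Array separation was counted as well, since it needs no variance estimate. Both zymosan arrays lay above both unstimulated arrays for 14 of the 61 hydrolase and membrane protein probe sets and below them for 35, against 30.4% above and 30.2% below among all tested probe sets. For the pump, whose calls were 2 in each direction, 22 of 40 lay above and 5 below. With the probe set of highest mean standing for each gene, 3 of 28 hydrolase and membrane protein genes rose (Gaa, Naglu and Tpp1) and 4 fell (Ids, Laptm4a, Laptm5 and Man2b1), beside 10.1% risen and 6.73% fallen among all 13222 genes. Of 18 pump genes, 1 rose (Atp6v1h) and limma called 0 fallen, with 1 lower at an unadjusted p under 0.05. Their arrays lay above in 10 and below in 1 of the 18, where 32.4% of all genes lay above and 28.2% below; for the 28 hydrolase and membrane genes the counts were 8 and 14.

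With 2 arrays against 2, no exact permutation test can give a 2-sided p below 0.333, so each call rests on variances shared across probe sets. Of the 26 called member probe sets, 20 of the 25 still tested stayed called without unstimulated replicate 1 and 18 of 25 without unstimulated replicate 2. Without zymosan replicate 1 the calls fell to 4 (1 of Gusb, 1 of Laptm5 and 2 of Atp6v0a1), and without zymosan replicate 2 to 2. Those 2, Laptm5 probe set 1417721_s_at and Atp6v0a1 probe set 1425227_a_at, were the members called in every setting that tested them. No called member changed sign in any setting. The arrays of every called probe set did not overlap between groups, so leaving out an array could not change a sign. With processing day as a random block, the calls kept were those of Ids, Atp6v0a1, Laptm4a, Npc2 and Laptm5 probe set 1417721_s_at. Every risen member and the other fallen ones lost their calls there. No day held both groups, so this block changed the SE and could not remove an effect of day.

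Promoters are shown first, because the known factors of these genes bind a short motif there. RefSeq promoter windows (mouse assembly GRCm38.p6), cut to the 250 bases before each annotated start, were found for 43 of the 50 genes (48 windows, since some genes have several starts); Asah1, Atp6v0a2, Atp6v0d2, Atp6v1b2, Atp6v1c1, Atp6v1g1 and Atp6v1h had no entry. The motif CACGTG reads the same on both strands, and so does TCACGTGA, which contains it. CACGTG stood in 9 of the 48 member windows (18.8%) and in 6.02% of all 32851 windows of the same length. The 9 genes were Gaa, Gla, Glb1, Lamp1, Lgmn, Naglu, Sgsh, Atp6v0b and Atp6v1a. TCACGTGA stood in the windows of Gla and Atp6v1a, and in 0.785% of all windows. The Lamp1 window held 4 copies, the farthest beginning 61 and the nearest 15 bases before the start. The windows of 5 genes follow, 5′ to 3′, with CACGTG in capitals. Laptm4a and Ids had the smallest p among the called genes with a window, and neither window holds the motif; the called pump gene, Atp6v1h, has no entry. Lamp1, with the most copies, and Gaa and Naglu, 2 of the genes that rose, were chosen after their values were seen. The windows are chr12:8921057-8921306 (plus strand) for Laptm4a, chrX:70365086-70365335 (minus strand) for Ids, chr8:13158911-13159160 (plus strand) for Lamp1, chr11:119267713-119267962 (plus strand) for Gaa and chr11:101069844-101070093 (plus strand) for Naglu.
Laptm4a: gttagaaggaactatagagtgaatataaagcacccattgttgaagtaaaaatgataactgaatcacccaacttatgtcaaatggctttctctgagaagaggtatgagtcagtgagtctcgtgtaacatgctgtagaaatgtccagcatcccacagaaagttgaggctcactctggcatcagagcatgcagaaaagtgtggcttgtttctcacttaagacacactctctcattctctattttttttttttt
Ids: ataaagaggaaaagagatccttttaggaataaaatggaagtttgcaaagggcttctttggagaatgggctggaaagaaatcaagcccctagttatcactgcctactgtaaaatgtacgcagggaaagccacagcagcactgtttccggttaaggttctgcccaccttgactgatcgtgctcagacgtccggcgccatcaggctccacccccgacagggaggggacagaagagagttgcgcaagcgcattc
Lamp1: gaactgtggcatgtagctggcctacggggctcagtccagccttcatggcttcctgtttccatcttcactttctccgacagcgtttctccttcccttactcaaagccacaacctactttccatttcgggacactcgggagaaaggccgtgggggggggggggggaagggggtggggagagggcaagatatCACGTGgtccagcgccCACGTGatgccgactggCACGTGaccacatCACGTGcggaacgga
Gaa: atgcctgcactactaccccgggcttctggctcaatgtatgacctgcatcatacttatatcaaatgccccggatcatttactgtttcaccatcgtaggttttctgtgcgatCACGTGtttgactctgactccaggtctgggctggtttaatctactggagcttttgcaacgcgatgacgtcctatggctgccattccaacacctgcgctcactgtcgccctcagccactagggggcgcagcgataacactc
Naglu: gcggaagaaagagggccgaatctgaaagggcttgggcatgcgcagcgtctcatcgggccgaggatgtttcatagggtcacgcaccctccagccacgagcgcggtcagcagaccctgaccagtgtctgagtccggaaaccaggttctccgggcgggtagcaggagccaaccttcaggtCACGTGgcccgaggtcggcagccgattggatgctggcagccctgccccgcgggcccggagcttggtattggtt

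A match to the motif is a description of these letters and not evidence of a bound site. Of the 27 hydrolase and membrane genes with a window, the 7 that held CACGTG had a median difference of 0.19 (log2), with 5 of the 7 above 0 and 2 risen by limma. The 20 without it had a median of -0.20, with 5 of the 20 above 0, 1 risen and 4 fallen. Among all genes with a window the medians were 0.03 for the 1027 with the motif and 0.01 for the 9648 without. Of those with it, 564 were above 0, 117 rose and 58 fell, and of those without it, 4910 were above 0, 972 rose and 653 fell. The 2 pump genes with the motif, Atp6v0b and Atp6v1a, differed by 0.04 and 0.08 and were not called. The genes of each set share the same 4 arrays and are not replicates, so no test of the split was made. The split was not among the planned comparisons, and each gene entered at its probe set of highest mean. Other probe sets gave other values in both groups, such as -0.70 for Sgsh with the motif, and -1.15 for Gusb and 0.64 for Acp2 without it.

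**Figure D1:**
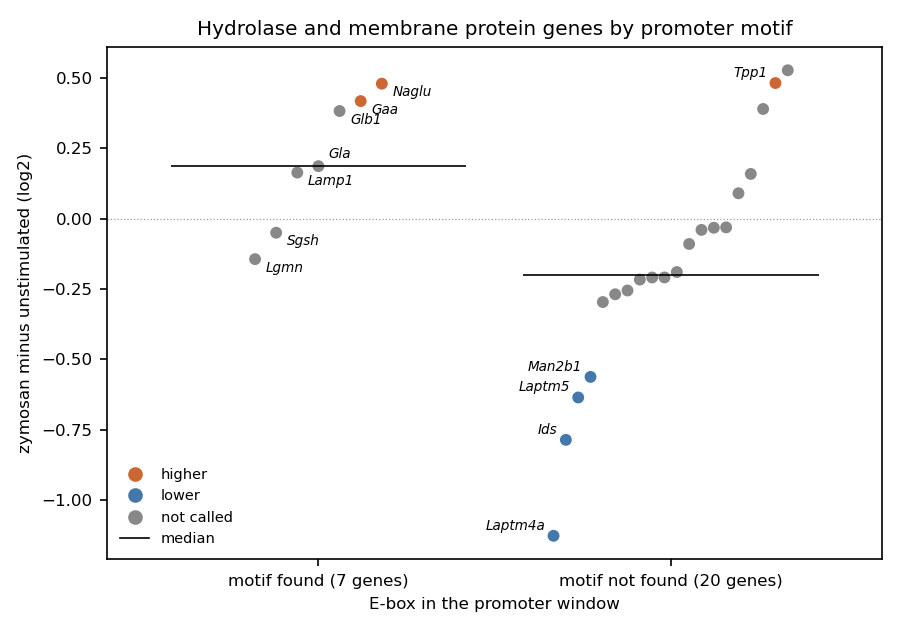
Difference between zymosan and unstimulated arrays (log2, vertical axis) for each hydrolase and membrane protein gene, split by whether CACGTG occurs in the 250 bases before its start. Each point is 1 gene at its probe set of highest mean, lines are medians, and colours show the limma call; the medians are 0.19 for 7 genes with the motif and -0.20 for 20 without, and the 4 fallen genes all lie among those without.

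The membrane proteins held the largest decrease. Laptm5, a membrane protein of blood cell lysosomes that directs receptors to degradation, read 10.42 and 10.41 (log2 level) in the unstimulated arrays and 8.40 and 8.24 in the zymosan arrays at probe set 1417721_s_at. The arrays did not overlap, and the difference was -2.10 (SE 0.11, n = 2 per group), 4.28-fold lower with a limma adjusted p of 0.00167. At its probe set of highest mean, 1436905_x_at, the levels were 12.58 and 12.71 unstimulated and 12.00 and 12.02 with zymosan, 1.55-fold lower (adjusted p = 0.0186). A further probe set, 1426025_s_at, read 11.61 in both unstimulated arrays and 10.95 and 10.96 with zymosan (1.58-fold lower, adjusted p = 0.0141). All of these Laptm5 probe sets were lower in both zymosan arrays, by amounts that differed between them. The fourth called probe set, 1459841_x_at, lay below the filter level in both zymosan arrays and was at least 1.04-fold lower. Its call was lost with no filter, after quantile normalization or median centring, with the day block and with a mean-variance trend. Probe set 1447742_at was not called (difference -0.02, adjusted p = 0.955).

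Laptm4a, a related transporter-like protein of endosomes and lysosomes, has a single probe set here. It read 11.99 and 12.31 (log2 level) unstimulated and 11.08 and 10.97 with zymosan. Both zymosan arrays lay below both unstimulated arrays by more than the gap within either pair, and Laptm4a was 2.18-fold lower (difference -1.13, SE 0.14, limma adjusted p = 0.00886). Its window shown above holds no CACGTG, and no link between the motif and the difference was tested.

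The LAMP proteins, the most abundant glycoproteins of the lysosomal membrane, had 1 called probe set. Lamp1 read 12.58 and 12.65 (log2 level) unstimulated and 12.76 and 12.80 with zymosan, a difference of 0.16 (SE 0.10) that did not pass limma's test (adjusted p = 0.342). Lamp2, whose splice forms serve chaperone-mediated autophagy and phagosome fusion, had 4 tested probe sets that did not move as one. Probe set 1416343_a_at fell from 10.57 and 10.62 to 10.00 and 9.93 (1.55-fold lower, adjusted p = 0.0170), whereas 1434503_s_at, the one of highest mean, read 11.55 and 11.49 unstimulated and 11.38 and 11.57 with zymosan (adjusted p = 0.862). The other two Lamp2 probe sets differed by -0.33 and 0.14 and were not called. Of the 11 membrane protein probe sets in all, 0 rose by limma (0 higher at an unadjusted p under 0.05) and 6 fell, with a median difference of -0.41. Laptm5 alone holds 5 of the 11 and most of those that fell. By gene, 2 of 4 fell, with a median of -0.34. Among all tested probe sets 8.48% rose and 7.45% fell, and these shares also stand beside each group count of probe sets below.

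**Figure D2:**
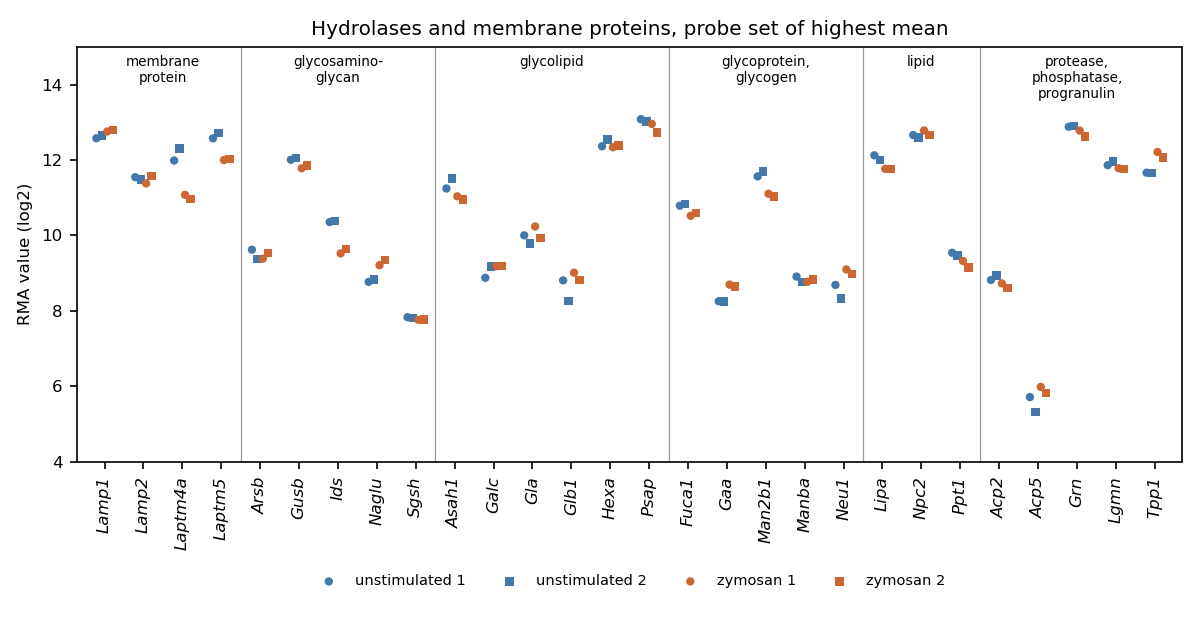
RMA log2 level (vertical axis) of the 28 hydrolase and membrane protein genes in each of the 4 arrays, at the probe set of highest mean per gene, grouped by what the protein acts on. Circles and squares are replicates 1 and 2, blue unstimulated and orange zymosan; Laptm4a, Laptm5, Ids and Man2b1 show zymosan arrays below and Gaa, Naglu and Tpp1 above, and levels of different genes should not be compared.

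Enzymes that degrade glycosaminoglycans, the sulfated sugar chains of proteoglycans, had the lowest median among the enzyme groups, -0.70 over 11 probe sets, of which 1 rose and 5 fell; 4 of the 11 belong to Ids. With 1 probe set per gene their median was -0.05 over 5 genes, 1 risen and 1 fallen, and the lipid group (-0.27) and the protease, phosphatase and progranulin group (-0.14) lay lower. Ids, the sulfatase that removes iduronate 2-sulfate from heparan and dermatan sulfate, fell at 3 of its 4 tested probe sets. At the one of highest mean, 1455481_at, it read 10.36 and 10.39 (log2 level) unstimulated and 9.52 and 9.65 with zymosan, 1.72-fold lower (difference -0.79, SE 0.11, limma adjusted p = 0.0107). Probe set 1450166_at went from 6.22 and 6.52 to 5.11 and 5.03, 2.46-fold lower (adjusted p = 0.00577), and 1434751_at from 7.58 and 7.78 to 6.64 and 6.59, 2.10-fold lower (adjusted p = 0.00645). The fourth tested, 1421216_a_at, differed by -0.43 (adjusted p = 0.0573). No zymosan array reached an unstimulated array at any of these 4 Ids probe sets.

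Gusb, beta-glucuronidase, read 11.16 and 11.19 (log2 level) unstimulated and 10.21 and 9.82 with zymosan at 1430332_a_at, 2.23-fold lower (difference -1.15, SE 0.15, limma adjusted p = 0.00987). At its other probe set, 1448124_at, both zymosan arrays were also lower (11.78 and 11.86 against 12.01 and 12.06), but the difference of -0.22 was not called (adjusted p = 0.224). Arsb, the sulfatase for N-acetylgalactosamine 4-sulfate, fell at 1429190_at from 5.41 and 4.88 to 4.37 and 4.33 (1.73-fold lower, adjusted p = 0.0443), close to the filter level of 4.36 to 4.39, while its probe set of highest mean had overlapping arrays and a difference of -0.03 (adjusted p = 0.904). Sgsh, the sulfamidase of heparan sulfate, differed by -0.70 at 1422988_at (adjusted p = 0.0582) and -0.05 at 1438731_at (adjusted p = 0.790).

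Naglu, the N-acetylglucosaminidase of heparan sulfate, rose. It read 8.77 and 8.83 (log2 level) unstimulated and 9.21 and 9.35 with zymosan, 1.39-fold higher (difference 0.48, SE 0.11, limma adjusted p = 0.0407) with no overlap of the arrays. It lost its call with no filter, after quantile normalization, with the day block and without either unstimulated or either zymosan array, with adjusted p between 0.0531 and 0.261.

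Of 9 glycolipid enzyme and saposin probe sets, 0 rose by limma (0 higher at an unadjusted p under 0.05) and 1 fell, with a median of -0.09. The one that fell belongs to Galc, which removes galactose from galactosylceramide: 1420547_at read 6.88 and 7.33 (log2 level) unstimulated and 6.22 and 6.16 with zymosan, 1.88-fold lower (difference -0.91, SE 0.17, adjusted p = 0.0226). At Galc's probe set of highest mean the difference was 0.16 (adjusted p = 0.480). Psap, precursor of the saposins that present lipids to these enzymes, differed by -0.72 at 1421813_a_at (12.81 and 12.73 against 12.32 and 11.77, adjusted p = 0.0589) and by -0.21 at its other probe set. Both zymosan arrays were lower at both Psap probe sets, without a call.

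The remaining glycolipid enzymes were not called. Asah1, acid ceramidase, differed by -0.38 (adjusted p = 0.108), with both zymosan arrays lower. Glb1, beta-galactosidase, differed by 0.38 (adjusted p = 0.256), with both zymosan arrays above unstimulated arrays that read 8.81 and 8.26 (log2 level). Gla, alpha-galactosidase A, differed by 0.19 and 0.26 at its tested probe sets and Hexa, the alpha chain of beta-hexosaminidase, by -0.09, each with overlapping arrays.

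Among enzymes of glycoproteins and glycogen, 2 of 11 probe sets rose and 2 fell, with a median of -0.03. Gaa, which degrades glycogen, supplied both increases. It read 8.25 in both unstimulated arrays and 8.70 and 8.64 (log2 level) with zymosan at 1436849_x_at, 1.34-fold higher (difference 0.42, SE 0.10, limma adjusted p = 0.0478), and 7.77 and 7.74 against 8.27 and 8.40 at 1419428_a_at, 1.50-fold higher (difference 0.58, adjusted p = 0.0231). The arrays did not overlap at either probe set. The call at 1436849_x_at was lost with no filter, after quantile normalization, with the day block and without any 1 of the arrays, and that at 1419428_a_at with the day block and without either zymosan array. Neu1, the lysosomal sialidase, read 8.69 and 8.33 unstimulated and 9.10 and 8.97 with zymosan, a difference of 0.53 (SE 0.15) that missed the threshold (adjusted p = 0.0721).

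Man2b1, the acid alpha-mannosidase, fell from 11.57 and 11.70 to 11.11 and 11.03 (log2 level) at 1416340_a_at, 1.48-fold lower (difference -0.56, SE 0.11, limma adjusted p = 0.0267). Its other probe set differed by -0.39 (adjusted p = 0.246). Fuca1, the lysosomal fucosidase, fell at 1437772_s_at from 9.44 and 9.37 to 8.89 and 8.49 (1.65-fold lower, adjusted p = 0.0363), with differences of -0.26 and -0.34 at its other tested probe sets, neither called. Manba, beta-mannosidase, had overlapping arrays and a difference of -0.03.

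For proteins acting on lipids, 0 of 9 probe sets rose by limma (0 higher at an unadjusted p under 0.05) and 2 fell, with a median of -0.27. Npc2, which carries cholesterol out of the lysosome, read 9.62 and 9.59 (log2 level) unstimulated and 8.80 and 8.83 with zymosan at 1455768_at, 1.72-fold lower (difference -0.79, SE 0.10, adjusted p = 0.00935). Its other tested probe sets differed by 0.13 and 0.09 and were not called. Ppt1, a thioesterase that removes fatty acids from proteins, fell at 1422468_at from 9.78 and 9.65 to 9.09 and 8.83 (1.69-fold lower, adjusted p = 0.0202), and differed by -0.27 at 1422467_at, which represents the gene (adjusted p = 0.181). Lipa, lysosomal acid lipase, was lower in both zymosan arrays at all 3 tested probe sets, by -0.45 (adjusted p = 0.0504), -0.30 and -0.11 (log2 differences), and none was called.

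The proteases, phosphatases and progranulin had 3 of 10 probe sets risen and 0 fallen by limma (0 lower at an unadjusted p under 0.05), with a median of -0.06. Tpp1, a tripeptidyl peptidase, rose at both of its probe sets. At 1448313_at it read 11.67 and 11.65 (log2 level) unstimulated and 12.21 and 12.07 with zymosan, 1.40-fold higher (difference 0.48, SE 0.11, adjusted p = 0.0405), and at 1434768_at 8.85 and 8.98 against 9.35 and 9.39, 1.37-fold higher (adjusted p = 0.0465). The first lost its call with no filter, with the day block and without any 1 of the arrays; the second lost it with no filter, after quantile normalization, with the day block and without unstimulated replicate 1 or either zymosan array. Acp2, a lysosomal acid phosphatase, rose at 1436788_at from 7.66 and 7.72 to 8.24 and 8.43, 1.56-fold higher (difference 0.64, adjusted p = 0.0220), yet its other two probe sets differed by -0.12 and -0.21 without a call. That left Acp2 with 1 probe set above and the one of highest mean below in both zymosan arrays.

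Acp5, the tartrate-resistant phosphatase used as an osteoclast marker, differed by 0.39 (5.71 and 5.31 against 5.98 and 5.82, adjusted p = 0.169), with both zymosan arrays above. Of the other osteoclast genes tested, the protease Ctsk rose 3.47-fold, Dcstamp, a fusion protein, differed by -1.47 (limma adjusted p = 0.0660) and Oscar by -0.09, neither called. Grn, progranulin, which is processed in lysosomes, differed by -0.02 to -0.19 over 3 probe sets. Lgmn, asparaginyl endopeptidase, differed by -0.14. Neither Grn nor Lgmn was called.

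**Figure D3:**
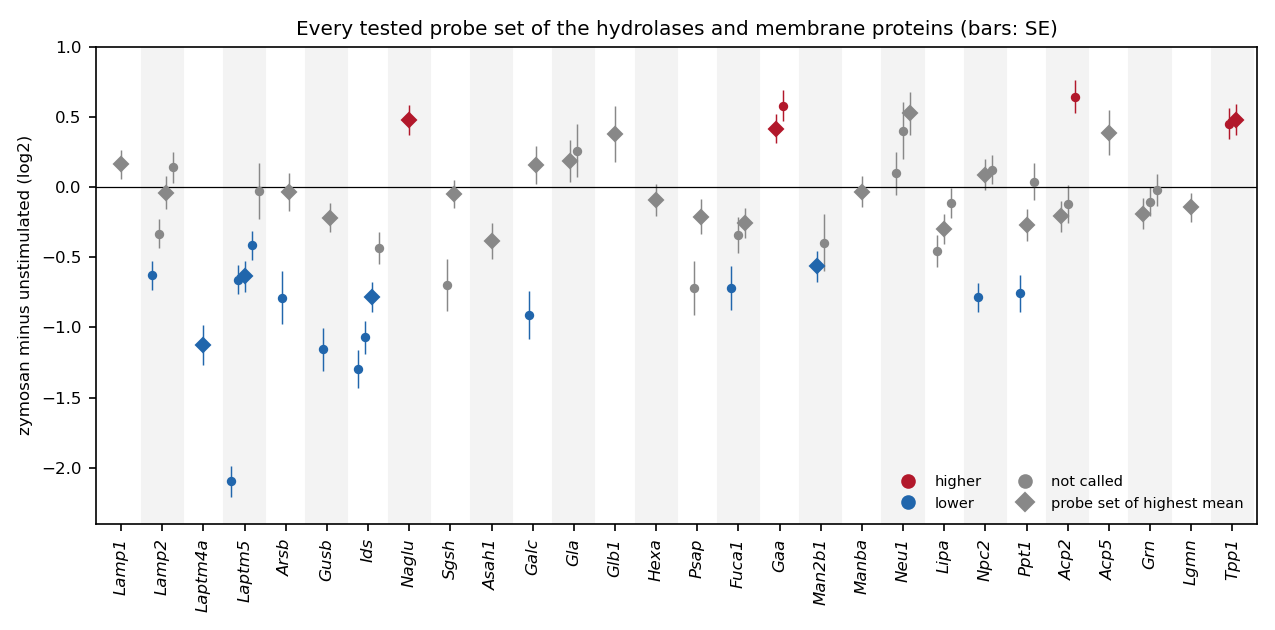
Difference between zymosan and unstimulated arrays (log2, vertical axis) for every tested probe set of the hydrolase and membrane protein genes. Points are limma estimates with their SE, diamonds mark the probe set of highest mean, and colours mark the call; in Gusb, Galc, Arsb, Npc2, Ppt1, Fuca1 and Lamp2 a probe set that fell stands below an uncalled diamond.

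Many of these genes were called at some probe sets and not at others. Of 19 hydrolase and membrane genes with 2 or more tested probe sets, 8 (42.1%) had a called probe set while the one of highest mean was not called: Arsb, Fuca1, Galc, Gusb, Lamp2, Npc2 and Ppt1, each with a fallen probe set, and Acp2 with a risen one. All tested probe sets of Fuca1 and Gusb read lower in both zymosan arrays, so these differed in call and not in direction. Such a split was seen in 1053 of 5920 genes in all (17.8%) and in 2 of 12 pump genes (16.7%). Its share also depends on how often probe sets were called. That was 6 risen and 16 fallen of 61 for hydrolases and membrane proteins, against 8.48% and 7.45% of all probe sets tested. These groups had 2.74, 2.70 and 2.83 tested probe sets per gene on average. The median spread between the highest and lowest difference within a gene was 0.65 for hydrolases and membrane proteins, 0.35 for all genes and 0.16 for the pump (log2). No member gene had probe sets called in opposite directions, which 45 genes on the array had. Which part of a transcript each probe set matches was not analysed here.

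In the V1 sector of the pump, most probe sets read higher in both zymosan arrays and few were called. Of its 22 tested probe sets, 2 rose and 0 fell by limma (9 higher and 0 lower at an unadjusted p under 0.05). In these 22, both zymosan arrays lay above both unstimulated arrays in 16 and below in 0, and the median difference was 0.28 (log2). Among all tested probe sets, 30.4% lay above and 30.2% below. Atp6v1c1, the C subunit that joins the stalks and governs assembly with V0, rose at 1419544_at from 11.05 and 10.87 to 11.44 and 11.43 (log2 level), 1.38-fold higher (difference 0.47, SE 0.11, adjusted p = 0.0474). At 1419546_at it went from 10.54 and 10.32 to 10.89 and 10.93, 1.40-fold higher (adjusted p = 0.0499), and at 1419545_a_at, of highest mean, from 11.95 and 11.83 to 12.16 and 12.27 without passing the test (difference 0.32, adjusted p = 0.113). At all 3 probe sets the zymosan arrays were the higher pair. Both calls were lost with no filter, with the day block and without unstimulated replicate 2 or either zymosan array, and that at 1419546_at also after quantile normalization.

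Atp6v1h, the H subunit that holds free V1 inactive, read 9.99 and 9.87 (log2 level) unstimulated and 10.32 and 10.33 with zymosan, 1.31-fold higher (difference 0.39, SE 0.11). It rose in the fit over genes (limma adjusted p = 0.0473) and missed the threshold in the fit over probe sets (adjusted p = 0.0627). It was the 1 pump gene called, and none was called without unstimulated replicate 2 or without either zymosan array.

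The other V1 subunits were not called. Atp6v1e1, a peripheral stalk subunit, differed by 0.37 (10.56 and 10.47 against 10.93 and 10.85, adjusted p = 0.0740), by 0.45 at 1420038_at (adjusted p = 0.0547), by 0.30 at 1449711_at and by -0.20 at 1457049_at, where the arrays overlapped. Atp6v1d, the central rotor shaft, differed by 0.26 at its probe set of highest mean and by 0.51 at 1416952_at (adjusted p = 0.0597). Atp6v1g1, the G subunit of the stalk, differed by 0.43 (adjusted p = 0.159), with zymosan arrays at 11.66 and 12.11. Apart from 1457049_at, both zymosan arrays were above at each of these probe sets.

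The catalytic A subunit Atp6v1a differed by 0.08 at its probe set of highest mean, with overlapping arrays, and by 0.25 at the other, while the B subunit Atp6v1b2 differed by 0.23 with the zymosan arrays above (11.54 and 11.36 against 11.28 and 11.15). Atp6v1f, in the central shaft, differed by -0.01. The tissue-restricted isoforms Atp6v1e2 and Atp6v1g2 differed by -0.04 and 0.10, with levels of 4.67 to 5.21 not far above the filter level. None of these was called by limma.

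**Figure D4:**
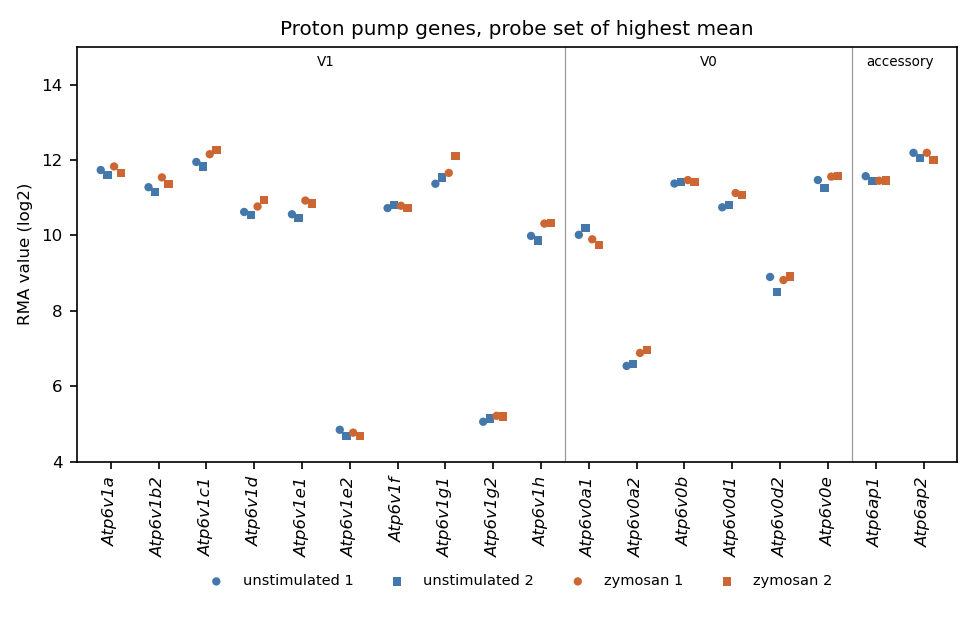
RMA log2 level (vertical axis) of the 18 tested proton pump genes in each of the 4 arrays, at the probe set of highest mean per gene, split into V1 sector, V0 sector and accessory proteins. Circles and squares are replicates 1 and 2, blue unstimulated and orange zymosan. In 7 of 10 V1 genes both zymosan points lie above both unstimulated points, and in none below. Among all genes tested, 32.4% lay above and 28.2% below.

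In the V0 sector, 0 of 14 probe sets rose by limma (2 higher at an unadjusted p under 0.05) and 2 fell, both of Atp6v0a1, with a median difference of 0.06. Atp6v0a1 encodes an isoform of the large a subunit, which forms the proton path and directs the pump to particular membranes. At 1425227_a_at it read 8.86 and 8.89 (log2 level) unstimulated and 7.13 and 6.93 with zymosan, 3.59-fold lower (difference -1.85, SE 0.12, adjusted p = 0.00208). At 1460650_at it went from 8.55 and 8.44 to 7.17 and 6.63, 3.02-fold lower (difference -1.60, SE 0.19, adjusted p = 0.00781). At both probe sets the lowest unstimulated array lay far above the highest zymosan array. At 1417632_at, the probe set of highest mean, both zymosan arrays were lower by less (10.02 and 10.20 against 9.90 and 9.74, difference -0.29, adjusted p = 0.177), and at 1459924_at the difference was -0.09 (adjusted p = 0.609). The gene was therefore not called when its probe set of highest mean stood for it, and was called fallen when its probe sets were averaged, the 1 pump gene lower under that choice.

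The other a isoform tested, Atp6v0a2, known from the Golgi and endosomes, differed by 0.36 at its probe set of highest mean (6.54 and 6.59 against 6.88 and 6.96, adjusted p = 0.0744), and by 0.19 and -0.26 at the other two, none called. Tcirg1, which encodes the a3 isoform of lysosomes and osteoclasts and lies outside the symbol rule, differed by -0.05 (adjusted p = 0.851). So the called decrease among a subunits was seen at Atp6v0a1 alone of these 3 genes, and whether its difference differs from theirs was not tested. Atp6v0d1, the d subunit linking V0 to the rotor, differed by 0.32 (adjusted p = 0.100), with both zymosan arrays above. Its isoform Atp6v0d2, found in osteoclasts and macrophages, differed by 0.16 and 0.32, Atp6v0e by 0.21, and Atp6v0b of the proton-binding ring by 0.04 (log2 differences), none called. The accessory proteins Atp6ap1 and Atp6ap2, which help assemble and place the pump, had overlapping arrays at all 4 probe sets and differences from -0.08 to 0.05.

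**Figure D5:**
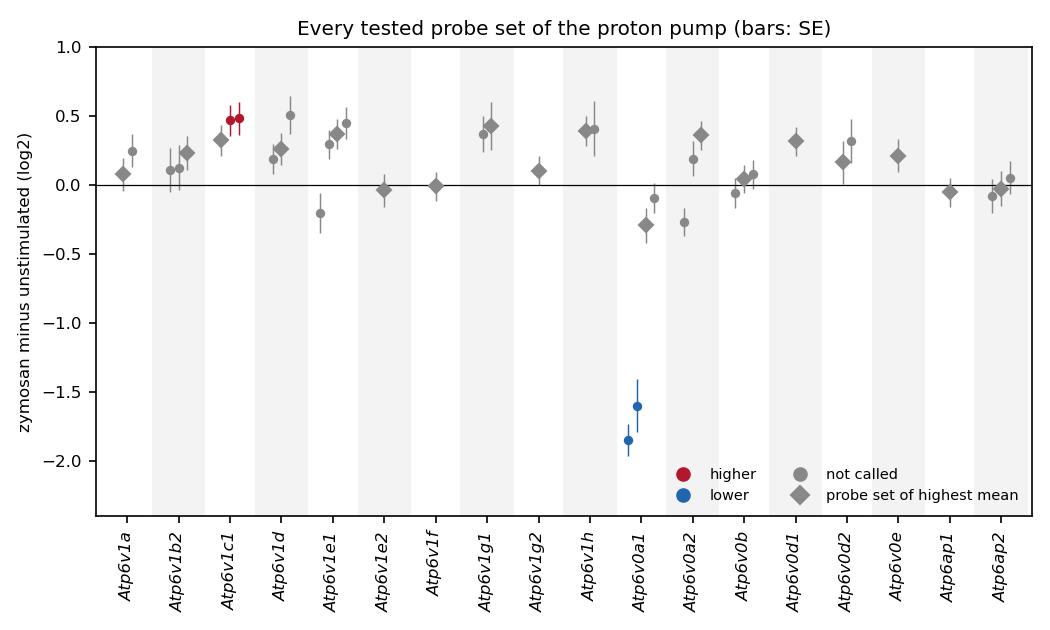
Difference between zymosan and unstimulated arrays (log2, vertical axis) for every tested probe set of the proton pump genes. Points are limma estimates with their SE, diamonds mark the probe set of highest mean, and colours mark the call; Atp6v0a1 at -1.85 and -1.60 stands apart, Atp6v1c1 has the 2 risen probe sets, and the remaining probe sets were not called.

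Further lysosomal genes were read from 6 lists of 134 genes outside the members, of which 123 were tested at the gene level. Of these, 21 rose and 10 fell, beside 10.1% risen and 6.73% fallen among all 13222 genes tested. Each list below has the same shares as its background. The median difference of the 123 genes was 0.05 (log2). Each gene entered at its probe set of highest mean. Of the 31 genes called, 24 stayed called as the mean of probe sets, 23 with no filter and 13 with processing day as a random block. Without zymosan replicate 1, 8 of the 31 called genes stayed called, and without zymosan replicate 2, 6 did. Other hydrolases had 5 risen and 4 fallen of 29, with a median of -0.10. Hgsnat, the acetyltransferase that works with Naglu and Sgsh on heparan sulfate, was 2.80-fold lower (10.68 and 11.09 against 9.44 and 9.36, log2 levels; limma adjusted p = 0.00407). Gm2a, the activator that presents ganglioside to hexosaminidase, was 2.05-fold lower (adjusted p = 0.00319) and the peptidase Prcp 1.67-fold (adjusted p = 0.0145). Smpdl3a, a phosphodiesterase, rose 1.79-fold (adjusted p = 0.0202).

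Other lysosomal membrane proteins had 9 risen and 0 fallen by limma of 37 (4 lower at an unadjusted p under 0.05), with a median of 0.13. Mcoln3, a cation channel, lay below the filter level in both unstimulated arrays and rose at least 19.8-fold, and its relative Mcoln2 rose 2.08-fold (9.09 and 8.70 against 10.00 and 9.92, adjusted p = 0.00926). Laptm4b, the paralog of Laptm4a, rose 2.04-fold (7.52 and 7.74 against 8.56 and 8.75, adjusted p = 0.00636), where Laptm4a was 2.18-fold lower; the difference between the paralogs was not tested. Slc15a3, a histidine and peptide transporter, rose 1.81-fold (adjusted p = 0.0125).

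Of 19 genes for mannose 6-phosphate tagging and sorting, 0 rose by limma (2 higher at an unadjusted p under 0.05) and 1 fell, Ap1b1, a subunit of the adaptor that packs hydrolases at the Golgi (1.61-fold lower, adjusted p = 0.0102). Among 12 pump partners, 2 rose and 2 fell: Tmem199 and Wdr7 rose 1.34-fold and 1.37-fold, and Rogdi and Vma21 were 1.68-fold and 1.48-fold lower. Tmem199 and Vma21 act in assembly of V0, and Wdr7 and Rogdi belong to the complex that joins V1 to V0. Among 15 genes of the Ragulator and Rag GTPase machinery, which recruits mTORC1 to lysosomes, 3 rose and 1 fell. Rragd rose 3.10-fold (6.67 and 6.52 against 8.26 and 8.19, adjusted p = 0.00103), Mtor 1.50-fold and Lamtor5 1.32-fold, and Rraga was 3.70-fold lower (9.14 and 9.35 against 7.57 and 7.14, adjusted p = 0.00269).

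The transcription factors of lysosomal genes had 2 risen and 2 fallen of 12, with a median of -0.17. Zkscan3, a repressor of autophagy and lysosome genes, rose 4.00-fold (5.97 and 5.74 against 8.04 and 7.67, log2 levels; limma adjusted p = 0.00200), and Tfec, a relative of TFEB found in macrophages, rose 2.73-fold (adjusted p = 0.00156). Usf1, an E-box factor, was 3.46-fold lower (adjusted p = 0.00118) and Foxo3 1.58-fold lower (adjusted p = 0.0158). Tfeb, Mitf and Tfe3, singled out after their values were seen, differed by -0.40 (adjusted p = 0.0508), -0.25 and -0.11 and were not called.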

How the data were processed

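Expression was measured on Affymetrix Mouse430_2 arrays. The authors deposited log2 values, 1 per probe set and array, from RMA (per the submitters' processing notes). Neither the RMA version nor the set of arrays it ran on is given in the sources used here. RMA equalizes arrays and gives a value even for an absent transcript. Where all arrays of the lower group lay below the filter level, a fold was computed against that level. Probe sets took their gene from the platform annotation. After 64 control probe sets were set aside, 34945 probe sets had 1 symbol, 932 several and 9160 none, and only those with 1 named a gene. Differences were fitted with lmFit and eBayes in limma 3.58.1 (R 4.3.3), 2-sided, and tested on simulated data. The number of arrays limits precision. For the gene fit, the tested probe set of highest mean stood for the gene. Genes were named by rule: every member, and up to 4 of smallest p in each other list. The members, lists and naming rule were chosen with earlier results of these data known. Marker lists covered macrophages, granulocytes and their precursors, osteoclasts, B cells, stromal fibroblasts, T and NK cells, erythroid cells and megakaryocytes, mast cells with basophils, and dendritic cells. Alternatives changed the filter, normalization, block, variance trend, gene summary and arrays used.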

Additional observations from a re-analysis of the deposited data

How the results depend on the processing

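The direction of all 26 called member probe sets was kept under every alternative run that tested them. Most of these runs could not have changed it. The arrays of each called probe set did not overlap between groups, so leaving out an array could not reverse a direction. The filter, block and trend settings leave the difference itself unchanged. Calls stayed with no filter in 18 of 26, with a 60th percentile filter in 24 of 24, after quantile normalization in 21, after median centring in 25, with a mean-variance trend in 25 and without _s_at and _x_at probe sets, chosen after seeing the data, in 20 of 20. With day of processing as a random block, 8 stayed. Its correlation of 0.54 was a moment estimate from the 2 pairs, since limma's own estimate could not be fitted. No day held both groups, so the block could not remove an effect of day. Counts of hydrolase and membrane probe sets risen went from 6 to 2 with no filter, 3 after quantile normalization and 0 with the day block (limma; 7 at an unadjusted p under 0.05), and ranged from 0 to 6 with 1 array left out; those fallen went from 16 to 6 with the block and ranged from 1 to 15. Pump probe sets risen went from 2 to 0 with no filter (13 at an unadjusted p under 0.05), 5 with the 60th percentile filter, 1 after quantile normalization, 0 with the block (7 unadjusted) and 7 with the trend (range 0 to 4 with 1 array left out), and those fallen ranged from 1 to 2. Hydrolase and membrane genes risen went from 3 to 0 with the block (4 unadjusted; range 0 to 6) and those fallen from 4 to 2 (range 0 to 5). Pump genes risen went from 1 to 0 with no filter (7 unadjusted), 3 with the 60th percentile filter, 0 after quantile normalization (6 unadjusted), 0 with the block (3 unadjusted), 4 with the trend, 2 as the mean of probe sets and 2 without _s_at and _x_at probe sets (range 0 to 2); those fallen went from 0 to 1 as the mean of probe sets (range 0 to 0). Genes of the other lysosomal lists risen went from 21 to 13 with no filter and 7 with the block (range 3 to 24), and those fallen from 10 to 16 with the 60th percentile filter, 6 with the block and 16 with the trend (range 4 to 19). The cause of these shifts was not tested. No paired analysis was possible because the labels give no replicate numbers shared between the groups.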
